A study of Mus musculus with 18 samples.

Results

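The clustered and linker histone genes were described in mouse embryonic stem cells and in 2 stages of their differentiation, in the genotypes Pax7+/+ and Pax7-/-. Members were all genes whose symbol is H1f, H2ac, H2bc, H3c or H4c with a number, or whose older symbol starts with Hist1 to Hist4, and that had a probe set naming that gene alone. A gene with several such probe sets was represented by its brightest, judged by the mean of the 18 arrays. This gave 33 of 22180 measured genes: 8 of the linker class H1, 8 of H2A, 9 of H2B, 8 of H4 and 0 of H3. The reference annotation lists 76 histone genes under the same rule, of which 39 occurred only in probe sets shared by several histone genes, and all 12 H3 genes on the array were of that kind. Of the 33, 29 were found by their current symbol and 4 by an older name (H2aw, H4f16 and the pseudogenes H2af-ps2 and H2bu1-ps). Chromosome 13, which carries the largest histone cluster, held 22 of them, chromosome 3 held 5, chromosome 6 held 3, chromosome 11 held 2 and chromosome 15 held 1.

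DNA is wound around octamers of the core histones H2A, H2B, H3 and H4, and a linker histone of the H1 class binds where the DNA enters and leaves. Most clustered histone genes are switched on when a cell copies its DNA, and their mRNAs end in a stem-loop in place of a poly(A) tail, which SLBP binds and which is degraded when replication stops. A few members are expressed outside this programme: H1f10 encodes a linker histone made from polyadenylated RNA, H1f6, H1f7, H2ac1 and H2bc1 encode histones known from the testis, and H1f8 encodes the linker histone of the oocyte.

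The cells were F1 embryonic stem cells of C57Bl6N and 129Sv mice. Undifferentiated cells kept with the self-renewal factor LIF were taken at day 0. Embryoid bodies, which are aggregates of differentiating cells, were taken at day 7 and their outgrowths at day 21. Both later stages grew without LIF and with RA and ITS. Each genotype and day had 3 arrays of samples labelled as biological replicates. The labels do not say whether the replicates of a genotype are separate lines or clones, so the p-values may measure technical spread only. The arrays measured total RNA of whole cultures, in which fewer cells of a type and less RNA per cell cannot be told apart. How the labelling reaction was primed is not given in the sources used here, so how fully RNA without a poly(A) tail was labelled is unknown.

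Values are log2 intensities, in which a step of 1 is a 2-fold difference. The arrays were of a narrow and a wide kind: 10 narrow arrays had a standard deviation over probe sets of 1.37 to 1.45, and 8 wide arrays of 1.79 to 1.85. All 6 groups held both kinds, 2 arrays of 1 kind and 1 of the other, and correlations over probe sets were 0.914 to 0.99 within a set and 0.653 to 0.789 between sets. The set was therefore a term of the main fit, and most array values are given with their set. Fits without this term, or on narrow or wide arrays alone, are named as such, as are ranges over all arrays. On the narrow arrays Pax7 read 5.61 to 6.37 and on the wide arrays 4.68 to 5.53, and the genotypes overlapped. It is not given whether its probes cover the sequence altered in Pax7-/-, so Pax7 checks no label. The mean level of 8 embryonic stem cell markers was 7.44 to 8.51 on the day 0 arrays and 5.62 to 6.53 on the day 21 arrays.

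Of the 33 members, 29 had an upstream window in the RefSeq promoter table of GRCm38.p6 (the table had none for H2bu1-ps, H2bc21, H2af-ps2 and H4c14). The 250 bases before each annotated start were searched on both strands for 5 elements known from histone promoters. These were the TATA box (TATAAA), the box called CCAAT, the octamer ATTTGCAT of H2B promoters, the H1 promoter element AAACACA and the letters GGTCC from the site of H4 promoters. TATAAA occurred in 13 of the 29 windows (44.8%), against 12.4% of all 32851 windows of the table. CCAAT occurred in 21 (72.4%, all windows 33.8%): in 6 of 8 H1 windows, 7 of 7 H2A windows and 7 of 7 H2B windows, but in 1 of 7 H4 windows. The octamer was found in 9 windows (31.0%, all windows 1.6%), of which 4 were of H2A and 5 of H2B genes. AAACACA stood in 4 of 8 H1 windows and in 3 of the 21 others (all windows 6.25%). GGTCC stood in 6 of 7 H4 windows, in 3 of 8 of H1 and in 1 of 7 each of H2A and H2B (all windows 39.8%). These matches are a description of letters and name no bound factor.

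The stretches below are those of the 7 members that passed between genotypes at day 21, and of H2ac1, which shares its promoter with H2bc1. Each runs 5′ to 3′ and ends at the base before the annotated start, and capitals mark the matches to the elements on either strand, none of which overlap. They are H1f5 (chr13:21780626-21780755, minus strand), H1f10 (chr6:87981483-87981542, minus strand), H2ac10 (chr13:23533725-23533874, plus strand), H2ac15 (chr13:21753913-21754012, minus strand), H2bc12 (chr13:22035651-22035820, plus strand), H4c12 (chr13:21750554-21750613, minus strand), H4f16 (chr6:136804432-136804491, minus strand) and H2ac1 (chr13:23934187-23934436, plus strand).
H1f5: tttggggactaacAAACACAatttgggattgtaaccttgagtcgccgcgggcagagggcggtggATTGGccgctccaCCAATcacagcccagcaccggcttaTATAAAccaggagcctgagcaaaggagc
H1f10: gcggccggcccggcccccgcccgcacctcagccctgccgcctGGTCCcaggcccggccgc
H2ac10: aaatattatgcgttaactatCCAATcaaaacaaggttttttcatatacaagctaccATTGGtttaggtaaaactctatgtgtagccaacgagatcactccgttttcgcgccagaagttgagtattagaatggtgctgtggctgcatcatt
H2ac15: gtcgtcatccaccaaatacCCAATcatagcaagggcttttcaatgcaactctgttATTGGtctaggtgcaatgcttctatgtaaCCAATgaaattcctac
H2bc12: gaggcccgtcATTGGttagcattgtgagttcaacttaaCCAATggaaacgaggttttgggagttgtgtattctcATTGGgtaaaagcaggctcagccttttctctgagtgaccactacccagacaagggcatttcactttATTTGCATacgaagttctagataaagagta
H4c12: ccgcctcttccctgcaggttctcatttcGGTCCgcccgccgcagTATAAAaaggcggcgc
H4f16: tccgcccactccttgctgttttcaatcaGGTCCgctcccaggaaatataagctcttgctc
H2ac1: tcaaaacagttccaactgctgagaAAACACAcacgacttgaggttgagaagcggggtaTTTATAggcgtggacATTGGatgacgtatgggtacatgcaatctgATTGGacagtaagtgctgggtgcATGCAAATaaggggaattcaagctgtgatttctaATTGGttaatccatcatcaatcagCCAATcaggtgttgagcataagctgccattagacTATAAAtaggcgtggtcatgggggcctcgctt
In the H1f5 stretch AAACACA begins 117 bases before the start, the CCAAT boxes lie 66 bases (on the other strand) and 53 bases before it, and the TATA box 28 bases before it. H2bc12 has 3 CCAAT boxes and 1 octamer, while H2ac10 with 2 and H2ac15 with 3 CCAAT boxes have no other element in their stretches. In the H1f10 stretch GGTCC, 18 bases before the start, is the only match. Both H4 stretches carry GGTCC, and of the pair H4c12 has the TATA box. H2ac1 and H2bc1 face away from each other on chromosome 13 with 280 bases between their starts (23934437 and 23934156), and their windows have 220 bases in common.

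At day 21, 7 histone genes, of all 4 measured classes, were higher in Pax7-/- than in Pax7+/+ cultures, and most members did not pass. Higher were the linker genes H1f5 and H1f10, the H2A genes H2ac10 and H2ac15, the H2B gene H2bc12 and the H4 genes H4c12 and H4f16. That is 7 of 33 members (21.2%), with 0 lower and 26 not passing, beside 4.89% of all 22180 genes (3.82% higher). Passing means an adjusted p (Benjamini-Hochberg) under 0.05 from limma, with the array set as a term. The median difference of the members was 0.16 log2, 0.03 on narrow arrays and 0.33 on wide arrays, and that of all genes -0.01. By class the median was 0.17 for H1, 0.46 for H2A, 0.11 for H2B and 0.08 for H4, and on narrow arrays alone the H2B median was -0.02. Of the 33 members 24 lay above 0, 18 on narrow and 27 on wide arrays alone. Without the term for the array set 0 members and 0 of all genes passed. In that fit 5 members and 539 of all 22180 genes had an unadjusted p under 0.05. Leaving out Pax7+/+ day 21 replicate 1 or Pax7-/- day 21 replicate 2 left 4 members passing, and the share of all genes in those fits was not counted.

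From day 7 to day 21, 8 members fell in Pax7+/+ cultures and 0 rose (24.2% of the members, beside 5.85% of all genes, 4.48% lower). These were H1f5, the H2A genes H2ac1, H2ac10, H2ac15 and H2ac21, H2bc12, H4c12 and H4f16. The median step of the members was -0.17 log2 (-0.11 on narrow, -0.27 on wide arrays) and that of all genes 0.01, and by class it was -0.05 for H1, -0.59 for H2A, -0.07 for H2B and -0.18 for H4. In Pax7-/- cultures the median was -0.05, and 0 members passed over the same step (0.834% of all genes), with 7 at an unadjusted p under 0.05. Here and below, counts at an unadjusted p with the array set as a term have no share of all genes to set beside them. Of the 8 that fell, 6 were among the 7 that differed between genotypes at day 21. Both comparisons use the same 3 Pax7+/+ day 21 arrays, so the overlap is not independent of them. In 7 members (21.2%) all Pax7+/+ day 21 arrays read below every other array of their set, in both sets, as they did in 4.72% of all genes. These were H1f5, H2ac10, H2ac15, H2bc12, H2bc18, H4c12 and H4f16, and 0 members had them above all others, against 2.74% of all genes. Without the array set term 0 members and 5 of all 22180 genes passed in the Pax7+/+ step. In that fit 6 members and 737 of all genes had an unadjusted p under 0.05.

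Before day 21 the test passed 0 or 1 of the 33 members per comparison, counts that do not set them apart from all genes. At day 0 and at day 7 it passed 0 members between genotypes (1.28% of all genes at day 0, 0.388% higher and 0.893% lower, and 0.627% at day 7), and 3 members had an unadjusted p under 0.05 at each day. From day 0 to day 7 it passed 0 members in Pax7+/+ (5.69% of all genes, 2.54% higher and 3.14% lower), with 1 at an unadjusted p under 0.05, and 1 in Pax7-/- (3.86%, of which 2.05% higher and 1.82% lower), where H1f2 rose. The plot of differences shows the day 21 comparison beside the steps from day 7.

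**Figure D1:**
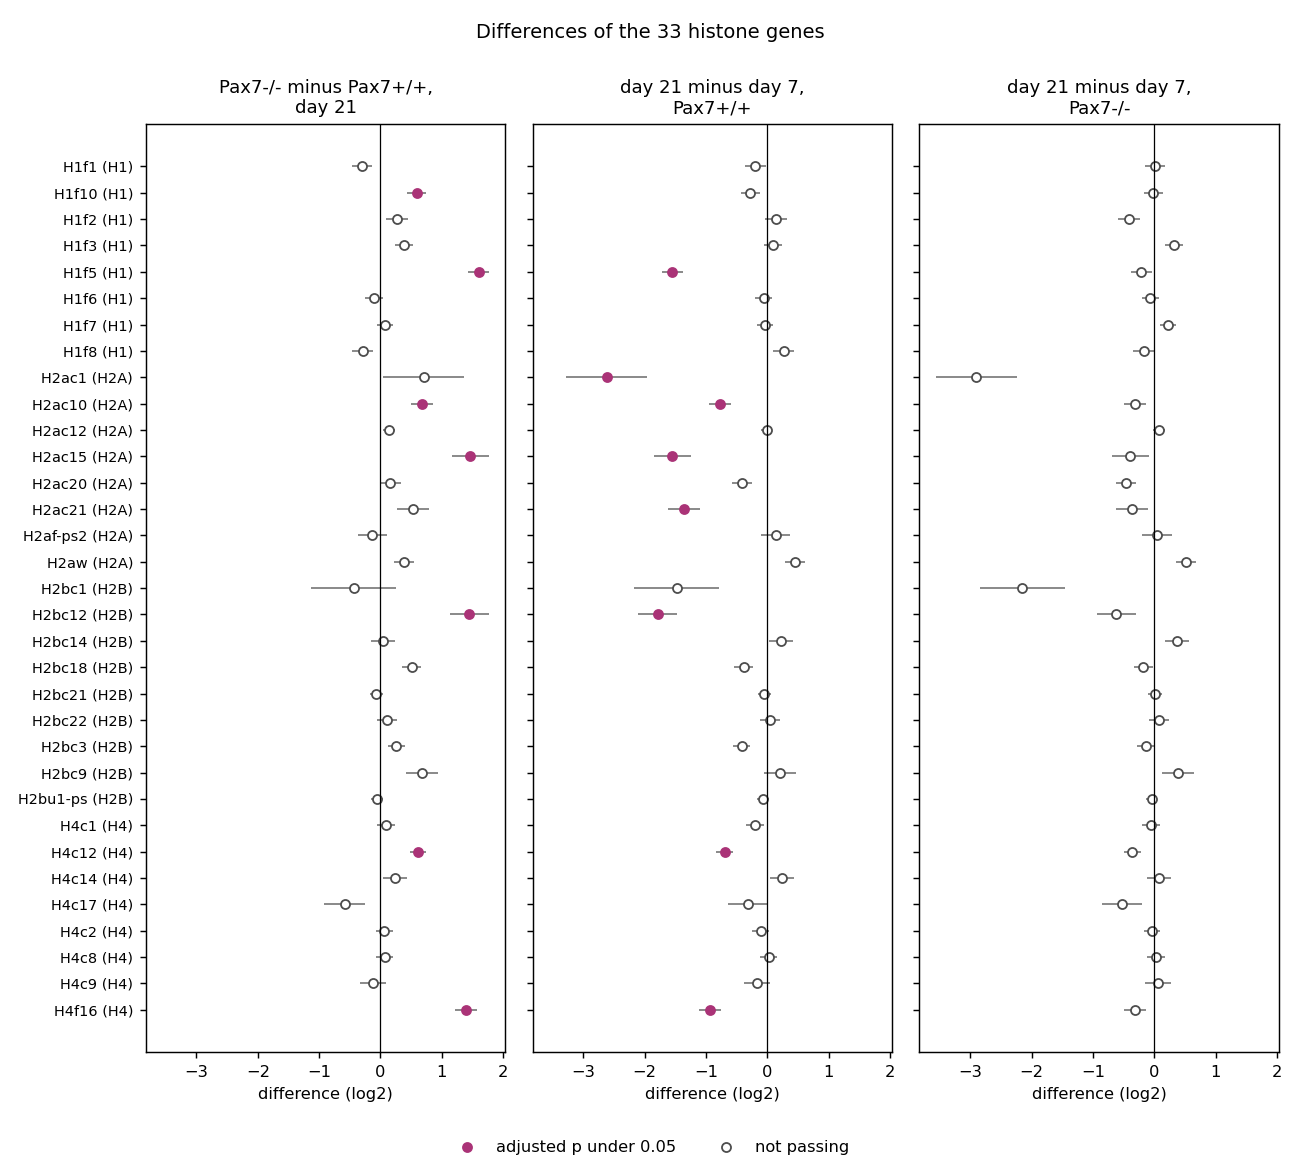
Difference in log2 intensity of each of the 33 histone genes in 3 comparisons, with the class in brackets. Points are limma estimates with the array set as a term, bars are standard errors, and filled points passed an adjusted p under 0.05. Filled points lie right of 0 for 7 genes in the left panel and left of 0 for 8 genes in the middle panel, and the right panel has none.

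Among the linker histones, H1f5 differed most. H1f5 encodes H1.5, a linker histone of dividing cells. On the narrow arrays it read 3.76 and 4.29 in Pax7+/+ and 5.76 in Pax7-/- at day 21, and on the wide arrays 6.26 in Pax7+/+ against 7.81 and 7.82 in Pax7-/-. The other narrow Pax7+/+ arrays read 5.61 and 5.21 at day 0 and 5.76 at day 7. The wide Pax7+/+ arrays read 8.03 at day 0 and 7.79 and 7.70 at day 7. So the 3 Pax7+/+ day 21 arrays were low, and the Pax7-/- day 21 arrays lay within the range of the earlier days, which was 5.21 to 6.01 on narrow and 7.70 to 8.18 on wide arrays outside Pax7+/+ day 21.

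The day 21 difference of H1f5 was 1.6 ± 0.17 log2 (SE, n = 3 per genotype), or 3.03-fold, with adjusted p = 0.00012, 1.74 on narrow and 1.55 on wide arrays. In Pax7+/+ it fell by 1.55 ± 0.17 log2 from day 7 to day 21 (adjusted p = 7.45e-05), or 2.93-fold. In Pax7-/- the same step was -0.21 ± 0.17 (adjusted p = 0.714). The genotype difference itself changed by 1.34 ± 0.25 log2 from day 7 to day 21 (adjusted p = 0.0204) and by 1.35 ± 0.24 from day 0 to day 21 (adjusted p = 0.0084), and H1f5 was the member, 1 of 33, that passed in each of these (0.911% of all genes for the first, 0.721% higher, and 1.86% for the second, 1.5% higher and 0.356% lower). The first of these did not pass without Pax7+/+ day 7 replicate 1, Pax7-/- day 7 replicate 1 or Pax7-/- day 21 replicate 1 (adjusted p = 0.0649, 0.0516 and 0.0782). The change from day 0 to day 7 passed for 0 members (0.482% of all genes), with 1 at an unadjusted p under 0.05.

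H1f10 encodes H1.10, a linker histone expressed in dividing and resting cells alike. At day 21 it read 7.14 and 7.75 on narrow and 8.19 on wide Pax7+/+ arrays, and 7.99 on narrow and 8.77 and 9.07 on wide Pax7-/- arrays. All Pax7-/- arrays were above the Pax7+/+ arrays of their set. The difference was 0.59 ± 0.16 log2, or 1.51-fold (adjusted p = 0.0368), 0.54 on narrow and 0.73 on wide arrays. It was 0.48 after quantile normalization (adjusted p = 0.0708), and it passed in 10 of 18 fits that left out 1 array. The 8 arrays whose omission ended the call were Pax7+/+ day 7 replicates 1, 2 and 3, Pax7+/+ day 21 replicates 1 and 2, Pax7-/- day 7 replicate 3 and Pax7-/- day 21 replicates 1 and 3, with adjusted p from 0.0502 to 0.181. The step from day 7 was -0.28 ± 0.16 in Pax7+/+ and -0.02 ± 0.16 in Pax7-/-, and neither passed.

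H1f2 encodes H1.2, among the common linker histones of somatic cells. In Pax7-/- it read 5.59 and 5.83 on narrow arrays at day 0 and 6.67 and 7.05 at day 7, and on wide arrays 7.03 at day 0 and 7.70 at day 7. Each day 7 array was higher than the day 0 arrays of its set. The rise was 0.99 ± 0.18 log2, or 1.98-fold (adjusted p = 0.0043), 1.15 on narrow and 0.67 on wide arrays. Pax7+/+ read 5.76 and 5.25 at day 0 and 5.86 at day 7 on narrow arrays, and 7.13 at day 0 and 7.37 and 7.13 at day 7 on wide arrays. Its step of 0.27 ± 0.18 did not pass. The genotype difference at day 7 was 0.82 ± 0.18 (adjusted p = 0.0577), and the change of that difference from day 0 to day 7 was 0.71 log2 and did not pass.

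The other 5 linker genes passed in none of the 10 comparisons. H1f1 encodes H1.1 and H1f3 encodes H1.3, both replication-dependent somatic forms. H1f1 read 3.21 to 3.56 on narrow and 3.89 to 4.98 on wide arrays. Its genotype difference was -0.33 ± 0.16, -0.51 ± 0.17 and -0.30 ± 0.17 at days 0, 7 and 21. H1f3 read 4.30 to 4.58 and 4.34 to 5.23 on the same sets, with a day 21 difference of 0.38 ± 0.15 (adjusted p = 0.18). The testis genes H1f6 (4.11 to 4.66 on narrow, 3.86 to 4.29 on wide arrays) and H1f7 (4.57 to 5.08 and 3.88 to 4.09) varied little within a set. H1f8 of the oocyte read 5.77 to 6.20 on narrow and 3.81 to 4.82 on wide arrays, and at day 21 it differed by -0.29 ± 0.17.

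**Figure D2:**
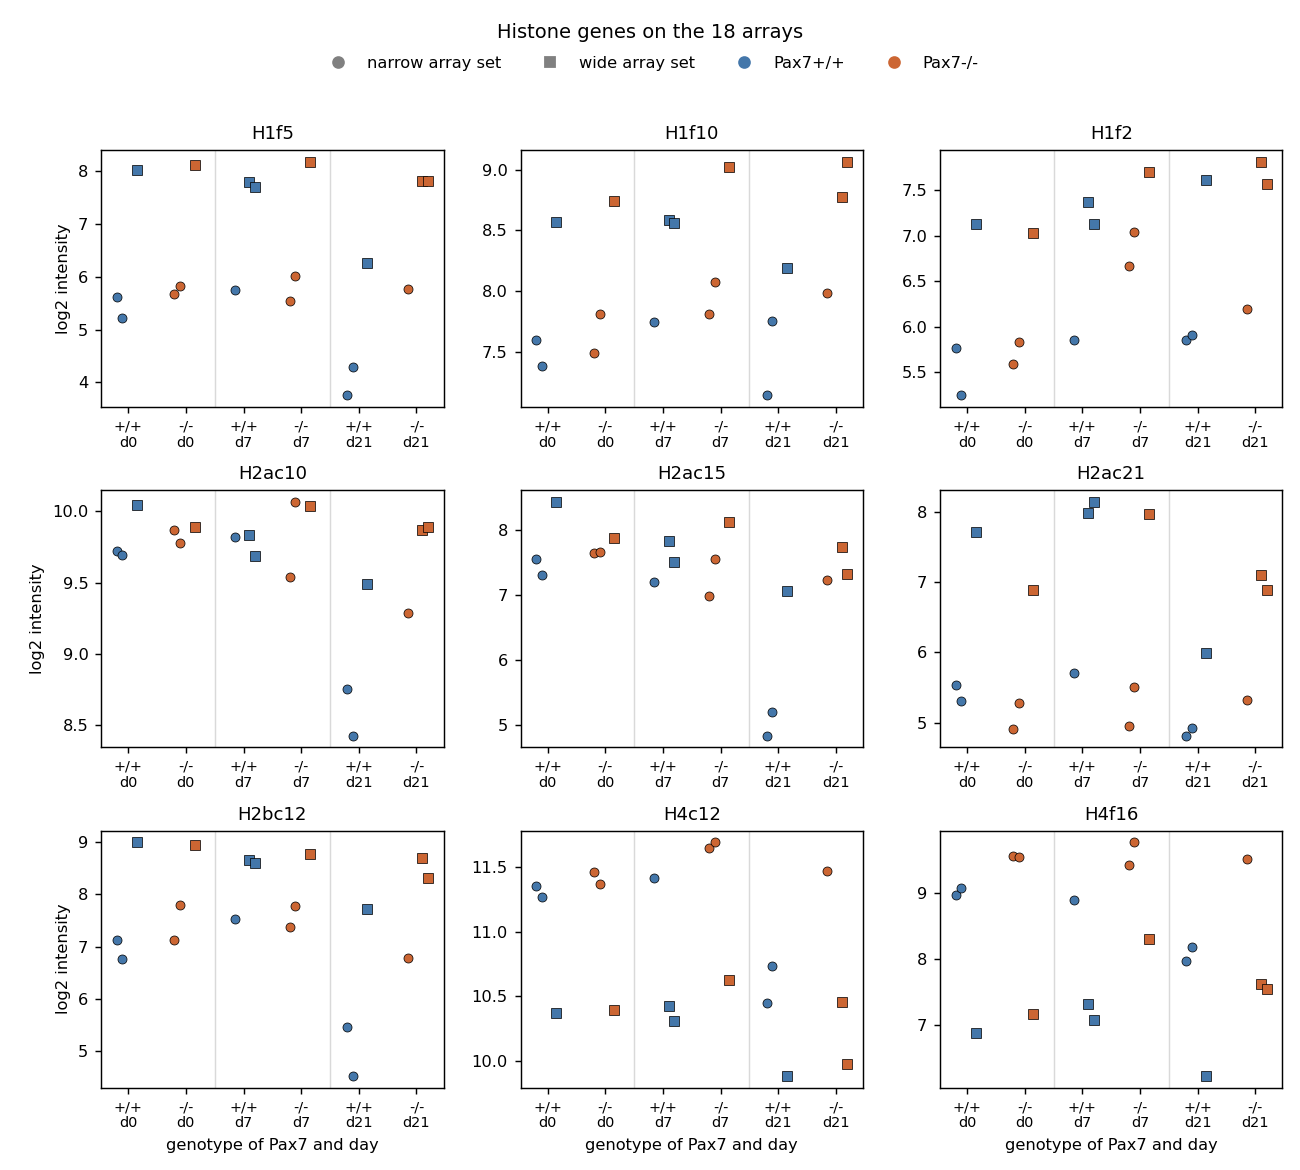
Log2 intensity of 9 histone genes on each of the 18 arrays by genotype and day, where d is day, circles are narrow and squares wide arrays, and each axis has its own range. In H1f5, H2ac10, H2ac15, H2bc12, H4c12 and H4f16 the Pax7+/+ day 21 arrays are the lowest of their set.

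H2ac15 and H2ac10 were the H2A genes that differed at day 21. Both encode replication-dependent H2A. H2ac15 read 4.83 and 5.19 on narrow and 7.07 on wide Pax7+/+ arrays, against 7.24 on narrow and 7.74 and 7.33 on wide Pax7-/- arrays. The narrow Pax7+/+ arrays were far below all others of their set, which read 6.98 to 7.67. The difference was 1.47 ± 0.30 log2, or 2.77-fold (adjusted p = 0.0095), but 2.23 on narrow and 0.47 on wide arrays, and it did not pass on wide arrays alone (adjusted p = 0.232) or without Pax7-/- day 21 replicate 1 (1.23, adjusted p = 0.0606). In Pax7+/+ H2ac15 fell by 1.55 ± 0.30 log2 from day 7 (adjusted p = 0.006), with -2.19 on narrow and -0.61 on wide arrays.

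H2ac10 read 8.75 and 8.43 on narrow and 9.49 on wide Pax7+/+ arrays at day 21, and 9.29 on narrow and 9.87 and 9.89 on wide Pax7-/- arrays. The Pax7-/- arrays were above the Pax7+/+ arrays of their set. The difference was 0.67 ± 0.18 log2, or 1.6-fold (adjusted p = 0.0442), 0.69 on narrow and 0.39 on wide arrays. This was the least firm of the 7: it passed in 5 of 18 fits that left out 1 array, those without Pax7+/+ day 7 replicate 1, Pax7+/+ day 21 replicate 2, Pax7-/- day 0 replicate 2 or Pax7-/- day 7 replicates 1 or 3, and had adjusted p up to 0.148 in the other fits. In Pax7+/+ it fell by 0.77 ± 0.18 log2 from day 7 (adjusted p = 0.0192). That fall did not pass without Pax7+/+ day 7 replicate 1 (-0.59, adjusted p = 0.117), Pax7+/+ day 7 replicate 2 (adjusted p = 0.0522) or Pax7+/+ day 21 replicate 3 (adjusted p = 0.069).

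H2ac21 also encodes a replication-dependent H2A. In Pax7+/+ it read 5.71 on narrow and 7.98 and 8.14 on wide arrays at day 7, and 4.82 and 4.92 on narrow and 6.0 on wide arrays at day 21. It fell by 1.37 ± 0.26 log2, or 2.58-fold (adjusted p = 0.0051), with -0.84 on narrow and -2.06 on wide arrays. In Pax7-/- the step was -0.37 ± 0.26, and the genotype difference at day 21 was 0.53 ± 0.26 (adjusted p = 0.319). A second probe set of H2ac21, looked at after the data had been seen, read 3.12 to 3.86 over all arrays and gave a step of 0.11 in Pax7+/+ (adjusted p = 0.683). The 2 probe sets of the gene thus disagree.

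H2ac1 is described with H2bc1 further on. The remaining 4 H2A genes did not pass in any comparison. H2aw, which lies outside the large clusters, read 4.72 to 5.18 on narrow and 4.90 to 6.10 on wide arrays. Its step from day 7 to day 21 was 0.45 ± 0.16 in Pax7+/+ (adjusted p = 0.131) and 0.51 ± 0.16 in Pax7-/- (adjusted p = 0.17). H2ac20 had -0.41 ± 0.16 and -0.46 ± 0.16 for the same steps (adjusted p = 0.18 and 0.241). H2ac12 stayed between 2.70 and 3.23 on all 18 arrays, and the pseudogene H2af-ps2 between 3.33 and 4.92.

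Of the H2B genes, H2bc12 was the 1 of 9 that passed. It read 5.46 and 4.53 on narrow and 7.71 on wide Pax7+/+ arrays at day 21, and 6.77 on narrow and 8.69 and 8.30 on wide Pax7-/- arrays. At day 7 it read 7.53 on narrow and 8.64 and 8.60 on wide Pax7+/+ arrays, so all 3 Pax7+/+ day 21 arrays were below these. The genotype difference at day 21 was 1.45 ± 0.31 log2, or 2.73-fold (adjusted p = 0.0125), 1.78 on narrow and 0.79 on wide arrays. Without Pax7-/- day 21 replicate 2 it was 1.36 (adjusted p = 0.051). In Pax7+/+ it fell by 1.79 ± 0.31 log2, or 3.46-fold (adjusted p = 0.0029), and in Pax7-/- the step was -0.62 ± 0.31 (adjusted p = 0.466).

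The other 8 H2B genes did not pass in any comparison. H2bc18 read 5.55 and 5.74 on narrow and 6.47 on wide Pax7+/+ arrays at day 21, below the 6.0 on narrow and the 7.12 and 7.14 on wide Pax7-/- arrays. Its difference was 0.51 ± 0.15 (adjusted p = 0.0756), 0.35 on narrow and 0.66 on wide arrays. H2bc3 had a step of -0.42 ± 0.14 in Pax7+/+ (adjusted p = 0.0845). H2bc9 differed by 0.68 ± 0.27 at day 21 (adjusted p = 0.186), but by -0.01 on narrow and 1.30 on wide arrays, so the sets disagreed. H2bc14, H2bc21, H2bc22 and the pseudogene H2bu1-ps had day 21 differences of 0.04, -0.07, 0.11 and -0.05.

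H4f16 and H4c12 were the H4 genes that passed. Mouse H4 genes encode nearly the same protein and differ mainly outside the coding sequence. H4f16 read 7.96 and 8.18 on narrow and 6.23 on wide Pax7+/+ arrays at day 21, and 9.52 on narrow and 7.63 and 7.55 on wide Pax7-/- arrays. All Pax7-/- arrays stood above the Pax7+/+ arrays of their set. The difference was 1.40 ± 0.18 log2, or 2.64-fold (adjusted p = 0.000407), with 1.44 on narrow and 1.36 on wide arrays. H4f16 fell by 0.94 ± 0.18 log2 from day 7 in Pax7+/+ (adjusted p = 0.0052), and in Pax7-/- the step was -0.31 ± 0.18 (adjusted p = 0.55).

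Pax7-/- arrays also read higher in H4f16 on the earlier days. On narrow arrays they read 9.55 and 9.54 against 8.96 and 9.08 at day 0, and 9.42 and 9.77 against 8.90 at day 7. On wide arrays they read 7.17 against 6.87 at day 0, and 8.31 against 7.32 and 7.08 at day 7. The groups did not overlap within a set on either day, and the differences were 0.45 ± 0.18 (adjusted p = 0.309) and 0.77 ± 0.18 (adjusted p = 0.0686), so neither passed. Each set holds only 1 or 2 arrays per group. How many of all genes separate 2 groups in both sets was not counted, here or elsewhere. A second probe set of H4f16, looked at after the data had been seen, read 3.88 to 4.74 and gave 0.07 at day 21 (adjusted p = 0.852) and -0.04 for the Pax7+/+ step (adjusted p = 0.905). The result for H4f16 thus rests on 1 of its 2 probe sets.

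H4c12 read 10.45 and 10.73 on narrow and 9.88 on wide Pax7+/+ arrays at day 21, and 11.47 on narrow and 10.46 and 9.97 on wide Pax7-/- arrays. On wide arrays the lower Pax7-/- value was close to the Pax7+/+ value. The difference was 0.61 ± 0.13 log2, or 1.53-fold (adjusted p = 0.0144), 0.88 on narrow and 0.33 on wide arrays. It did not pass without Pax7+/+ day 21 replicate 1, Pax7-/- day 21 replicate 1 or Pax7-/- day 21 replicate 2 (adjusted p = 0.0579, 0.087 and 0.0639), or after quantile normalization (adjusted p = 0.0554). In Pax7+/+ it fell by 0.70 ± 0.13 log2 from day 7 (adjusted p = 0.0055), and in Pax7-/- the step was -0.35 ± 0.13 (adjusted p = 0.284).

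The other 6 H4 genes passed in no comparison. H4c17 read 3.41 to 3.76 on narrow arrays and 3.88 to 6.11 on wide arrays, where its genotype difference was -2.23 at day 0 and -1.13 at day 21, against -0.14 and 0.01 on narrow arrays. H4c9 read 4.92 to 6.18 over all arrays, and H4c1, H4c2, H4c8 and H4c14 had day 21 differences of 0.09, 0.06, 0.07 and 0.24. In all, 23 of the 33 members passed in none of the 10 comparisons, and their median difference at day 21 was 0.07 log2. Among them are H2ac12, H2bu1-ps and H4c8, which read near the floor.

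H3 was measured only through probe sets shared by several genes, which report a sum over near-identical transcripts. There were 38 shared histone probe sets covering 12 sets of genes, and for each set of genes the highest was used. The probe set shared by 8 H3 genes (H3c2, H3c3, H3c4, H3c6, H3c7, H3c13, H3c14 and H3c15) read 6.13 and 6.20 on narrow and 6.54 on wide Pax7+/+ arrays at day 21, and 6.71 on narrow and 6.96 and 6.96 on wide Pax7-/- arrays. All other arrays read 6.53 to 6.95 on narrow and 6.88 to 7.01 on wide arrays, so the Pax7+/+ day 21 arrays were the lowest of their set. The difference was 0.50 ± 0.10 log2, or 1.42-fold (adjusted p = 0.0064), 0.55 on narrow and 0.42 on wide arrays. It fell by 0.43 ± 0.10 log2 from day 7 in Pax7+/+ (adjusted p = 0.0148), and in Pax7-/- the step was -0.09 ± 0.10. The probe set shared by the other 4 H3 genes (H3c1, H3c8, H3c10 and H3c11) gave 0.32 ± 0.27 at day 21 and did not pass.

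With the shared probe sets in the table, 5 of 12 were higher in Pax7-/- at day 21 and 0 lower (4.93% of all 22192 entries). Besides H3 these were a set naming H1f4, H2bc4, H2bc6 and H2bc8 (0.76 ± 0.17), a set of the H2A genes H2ac18, H2ac19 and H2ac20 (0.64 ± 0.12), and sets of 12 H2B genes (0.49 ± 0.11) and of 4 of H2B (0.42 ± 0.10). In Pax7+/+, 4 of 12 fell from day 7 to day 21 (5.87% of all entries): the H2A set by 0.52 ± 0.12, both H2B sets by 0.66 ± 0.11 and 0.41 ± 0.10, and the H3 set. The H1 and H2B set did not pass in this step (-0.09 ± 0.17), and its step in Pax7-/- was 0.72 ± 0.17 (adjusted p = 0.0567). Some genes of these sets, such as H2bc12 and H2ac20, are members with a probe set of their own, so the readings overlap in part. The shared sets also overlap each other. All genes of the set of 4 H2B genes are among the 12 of the larger H2B set, as are H2bc4, H2bc6 and H2bc8. The 12 shared sets are thus not separate readings. Histone genes are near-identical in their coding parts, so a probe set that names 1 gene may also bind RNA of its relatives.

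**Figure D3:**
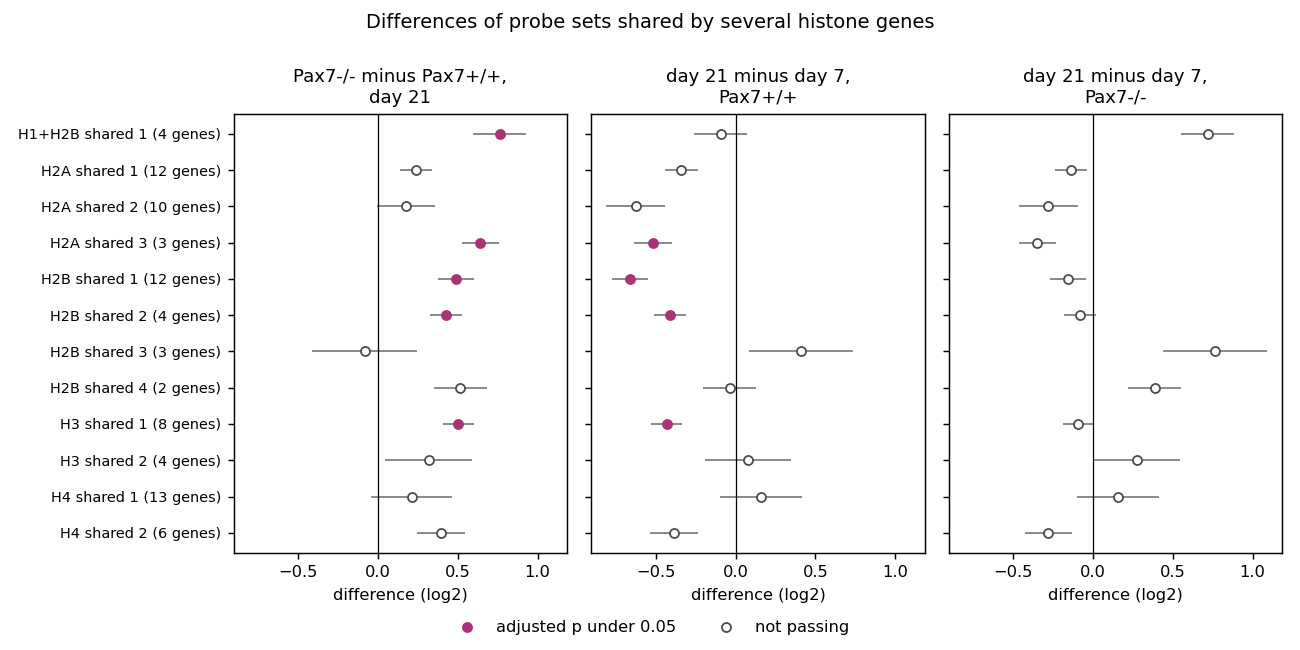
Difference in log2 intensity of the 12 probe sets shared by several histone genes, in 3 comparisons, with the number of genes in brackets. Points are limma estimates with the array set as a term, bars are standard errors, and filled points passed an adjusted p under 0.05. Filled points are higher in Pax7-/- in 5 sets at day 21 and lower at day 21 in 4 sets in Pax7+/+.

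H2ac1 and H2bc1, the neighbours that share the promoter printed above, encode the testis forms of H2A and H2B. Over all 18 arrays H2ac1 had the widest range of the 33 members, 3.64 to 10.24, and both ends were wide arrays. On narrow arrays, where H2bc12 had the widest range (4.53 to 7.79), H2ac1 read 5.80 to 9.0. At day 0 it read 7.04 and 6.76 on narrow and 8.65 on wide Pax7+/+ arrays, and 9.0 and 8.92 on narrow and 10.24 on wide Pax7-/- arrays. At day 21 it read 5.92 and 6.51 on narrow and 3.64 on wide Pax7+/+ arrays, and 5.80 on narrow and 6.93 and 6.08 on wide Pax7-/- arrays. The undifferentiated cells and embryoid bodies of both genotypes were thus higher than the outgrowths of the same set.

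In Pax7+/+ H2ac1 fell by 2.62 ± 0.66 log2 from day 7 to day 21, or 6.15-fold (adjusted p = 0.0274), with -1.07 on narrow and -5.00 on wide arrays. The size rests on the wide array Pax7+/+ day 21 replicate 2: without it the fall was -1.12 (adjusted p = 0.0637). Without Pax7+/+ day 7 replicate 2 or 3 it was -2.57 and -2.44 (adjusted p = 0.0874 and 0.104). In Pax7-/- the step was -2.90 ± 0.66 (adjusted p = 0.0533), -2.72 on narrow and -3.33 on wide arrays. The difference between these steps was -0.28 ± 0.95 (adjusted p = 0.972).

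At day 0 H2ac1 differed between genotypes by 1.90 ± 0.65 log2 (adjusted p = 0.218), 2.06 on narrow and 1.59 on wide arrays, and the genotypes did not overlap within a set. At day 7 the difference was 0.99 ± 0.66 (adjusted p = 0.717). H2bc1 read 2.95 to 3.89 on all narrow arrays, a range of 0.94. On wide arrays it read 4.62 in Pax7+/+ and 7.57 in Pax7-/- at day 0, 5.60 and 6.23 in Pax7+/+ and 7.08 in Pax7-/- at day 7, and 2.74 to 3.30 at day 21. On wide arrays the day 21 arrays were therefore the lowest in both genes. On narrow arrays H2bc1 read 2.95 and 3.31 in Pax7+/+ and 3.63 and 3.79 in Pax7-/- at day 0. Its narrow day 21 arrays, at 3.12 to 3.38, lay within the range of the earlier days. Its steps from day 7 were -1.48 ± 0.69 in Pax7+/+ and -2.15 ± 0.69 in Pax7-/- (adjusted p = 0.263 and 0.182), and neither passed.

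**Figure D4:**
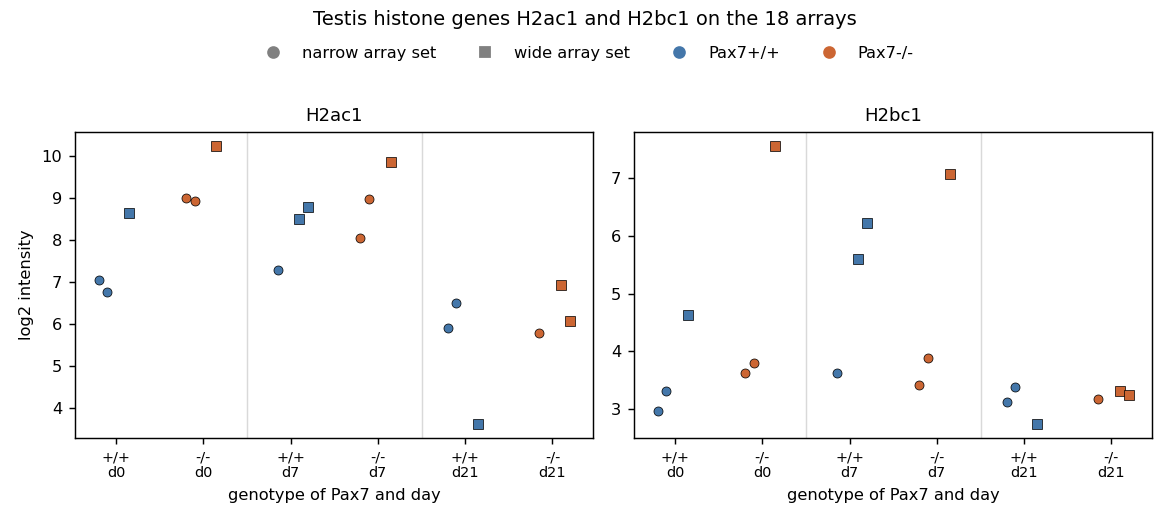
Log2 intensity of the testis histone genes H2ac1 and H2bc1 on each of the 18 arrays by genotype and day, where d is day, circles are narrow and squares wide arrays, and each axis has its own range. Day 21 arrays read 3.64 to 6.93 for H2ac1, and the wide arrays of H2bc1 drop to 2.74 to 3.30 at day 21.

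At day 21, 14 of 23 measured DNA replication genes were higher in Pax7-/- and 0 lower, beside 3.82% of all genes higher and 1.07% lower, with a median of 0.69 log2 (0.81 on narrow, 0.61 on wide arrays). Examples are Mcm5 (1.36 ± 0.18), Mcm7 (0.95 ± 0.18) and Mcm3 (0.90 ± 0.16), subunits of the replicative helicase, and the sliding clamp Pcna (0.99 ± 0.15). Of the genes for histone chaperones, which carry new histones to the fork, and for nuclear import, 9 of 20 were higher and 0 lower. Among them were Supt16 of the FACT complex (1.06 ± 0.19), Asf1b (1.01 ± 0.09), the acetyltransferase Hat1 (0.95 ± 0.21) and Mcm2 of the same helicase (0.92 ± 0.15). Of the genes that switch on histone transcription or cut the histone mRNA end, 2 of 21 were higher and 0 lower, namely Eri1, the nuclease that trims the stem-loop (1.05 ± 0.17), and E2f3 (0.62 ± 0.13). Of the replication-independent variants 1 of 7 was higher, H2az2 (1.07 ± 0.18). Whether 2 of 21 and 1 of 7 exceed the 3.82% of all genes that were higher was not tested, and both lists are small. Mitosis genes were higher in 8 of 19 and lower in 0, with Top2a (1.13 ± 0.14), Ccnb2 (0.97 ± 0.18), Plk1 (0.94 ± 0.21) and Aurkb (0.90 ± 0.16).

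The cell cycle brakes gave calls in both directions at day 21. Ccng1, a cyclin induced by p53, was higher by 1.25 ± 0.17, and the CDK inhibitor gene Cdkn1c (-1.52 ± 0.29) and the antiproliferative gene Btg1 (-0.92 ± 0.13) were lower, of 14 measured. Of all genes 3.82% were higher and 1.07% lower. Without the array set term none of these lists' genes could pass, since 0 of 22180 genes did.

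In Pax7+/+, 8 of 23 DNA replication genes fell from day 7 to day 21 and 0 rose, beside 4.48% of all genes that fell and 1.37% that rose, with Mcm5 (-1.32 ± 0.18), the ribonucleotide reductase subunit Rrm2 (-1.14 ± 0.14), Mcm7 (-0.99 ± 0.18) and Mcm4 (-0.82 ± 0.19). Of the chaperone and import genes 6 of 20 fell, with Hat1 (-1.42 ± 0.21), Asf1b (-0.87 ± 0.09), Mcm2 (-0.78 ± 0.15) and Supt16 (-0.75 ± 0.19). Mitosis genes fell in 16 of 19, with Ccna2 (-1.19 ± 0.22), Plk1 (-1.10 ± 0.21), Bub1 (-0.97 ± 0.13) and Cdk1 (-0.96 ± 0.13). H2ax, whose product marks DNA breaks, fell by 1.27 ± 0.17 and Macroh2a1 by 0.61 ± 0.13, which is 2 of 7 variants. The processing list gave 0 of 21, and the nearest to passing were the kinase gene Cdk2 (-0.34 ± 0.10, adjusted p = 0.0708) and the cap-binding gene Ncbp1 (-0.63 ± 0.22, adjusted p = 0.11). The brakes Btg2 (1.68 ± 0.17) and Btg1 (1.09 ± 0.13) rose and Ccng1 (-0.62 ± 0.17) fell.

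In Pax7-/- the step from day 7 to day 21 passed 0 replication, 0 chaperone and import, 0 mitosis, 0 processing and 0 variant genes (0.834% of all genes). Their medians were 0.21, 0.22, -0.07, 0.10 and -0.10 log2. Pcna was at 0.52 ± 0.15 (adjusted p = 0.137) and H2ax at -0.69 ± 0.17 (adjusted p = 0.0808). Npat, the coactivator of clustered histone genes, was at -0.49 ± 0.13 (adjusted p = 0.097). The brake Btg2 rose by 0.96 ± 0.17 (adjusted p = 0.0117). The genotype difference changed from day 7 to day 21 in 7 of 23 replication genes, 6 of 20 chaperone and import genes and 4 of 19 mitosis genes. All changed upward (0.721% of all genes upward), led by Rrm2 (1.6 ± 0.20), Hat1 (1.37 ± 0.31) and Plk1 (1.39 ± 0.31). Rrm2 was lower in Pax7-/- at day 0 (-0.82 ± 0.14, adjusted p = 0.007) and at day 7 (-0.83 ± 0.14, adjusted p = 0.0137), so its change started from a value below Pax7+/+. At day 0 Eri1 (0.84 ± 0.17, adjusted p = 0.0219) and Asf1b (0.52 ± 0.09, adjusted p = 0.0094) were already higher in Pax7-/-.

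In the step from day 0 to day 7, in which H1f2 alone of the members passed, some genes of these groups fell. Replication genes fell in 7 of 23 in Pax7+/+ (3.14% of all genes), with Mcm3 (-0.84 ± 0.16), Pola1 (-0.78 ± 0.15), Pole (-0.63 ± 0.11) and Mcm6 (-0.62 ± 0.13), and in 8 of 23 in Pax7-/- (1.82% of all genes), with Mcm4 (-0.87 ± 0.18) and Pcna (-0.79 ± 0.15). The histone chaperone Nasp fell in both (-0.87 ± 0.14 and -0.64 ± 0.14), as 1 of 4 and 1 of 3 chaperone and import genes that fell. The variant Macroh2a1 rose in both (0.56 ± 0.13 and 0.80 ± 0.13). Median differences of the members were -0.02 and -0.04 log2.

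**Figure D5:**
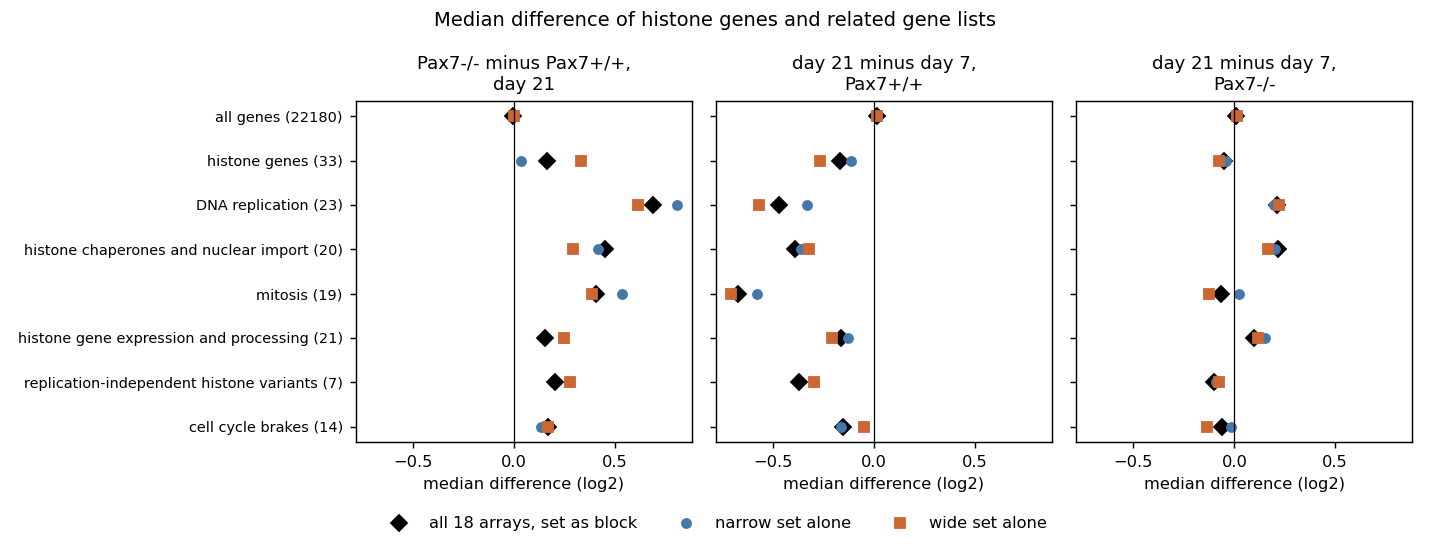
Median difference in log2 intensity of the histone genes and related gene lists in 3 comparisons, with the number of genes in brackets. Diamonds are fits to all 18 arrays with the array set as a term, circles narrow and squares wide arrays alone, and marks that coincide hide each other. At day 21 the replication median is 0.69 and that of all genes -0.01.

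Levels of other cell types moved with the same arrays. The mean level of the 6 fibroblast markers at day 21 was 6.67 and 7.14 on narrow and 8.89 on wide Pax7+/+ arrays, and 6.0 on narrow and 6.96 and 7.71 on wide Pax7-/- arrays, so the Pax7+/+ arrays were higher in each set. Lower in Pax7-/- were Pdgfra (-1.26 ± 0.30) and the proteoglycan gene Dcn (-1.25 ± 0.31), 2 of 6, and 4 of 6 rose from day 7 to day 21 in Pax7+/+. Of all genes 3.82% were higher and 1.07% lower in Pax7-/- at day 21, and 1.37% rose in that Pax7+/+ step. The mean level of the 23 replication genes was 6.06 and 6.06 on narrow and 7.49 on wide Pax7+/+ arrays at day 21, and 6.75 on narrow and 8.05 and 8.18 on wide Pax7-/- arrays. Of 8 stem cell markers Nanog was higher (1.37 ± 0.33) and Klf4 lower (-1.20 ± 0.16). The 4 visceral endoderm markers gave mean levels of 7.10 and 7.14 on narrow and 9.24 on wide Pax7+/+ arrays at day 21, and of 6.54 on narrow and 6.48 and 7.50 on wide Pax7-/- arrays, with a median difference of -0.97 log2 and 0 passing. The 4 neural progenitor markers gave 6.08 and 6.09 on narrow and 6.64 on wide Pax7+/+ arrays, and 6.52 on narrow and 7.54 and 7.67 on wide Pax7-/- arrays, with a median of 0.74 and 1 passing, Sox1 (1.76 ± 0.26). The 4 neuron markers gave 5.15 and 5.20 on narrow and 6.53 on wide Pax7+/+ arrays, and 5.56 on narrow and 6.77 and 6.98 on wide Pax7-/- arrays, with 2 passing, Stmn2 (0.88 ± 0.17) and Tubb3 (0.74 ± 0.16). So the genotypes did not overlap within a set for these 3 lists either. The 4 cardiac markers had 0 passing, with 5.75 and 5.94 on narrow and 7.11 on wide Pax7+/+ arrays against 6.05 on narrow and 6.73 and 7.00 on wide Pax7-/- arrays, so the sets disagreed in direction. The part of these cell types in the histone differences was not tested.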

How the data were processed

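RNA of 18 mouse samples (6 groups of 3) was measured on Affymetrix arrays. The authors deposited log2 intensities, 1 value for each probe set and array. The submitters' processing notes name RMA and Partek, with no version or order, and do not say whether all arrays were summarised jointly. Of 41345 probe sets, 23521 carried 1 gene symbol in the platform annotation, 1814 several and 16010 none. The single-symbol probe set with the highest mean was kept per gene, with no filter on low values. An array was called wide where its standard deviation over probe sets was above 1.6.

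Differences were tested over all 22180 genes with limma 3.58.1 (R 4.3.3). A linear model was fitted per gene by lmFit and moderated by eBayes with no trend, with 6 group means and the array set as a fixed block (11 residual degrees of freedom), Benjamini-Hochberg adjustment and a threshold of 0.05. Narrow and wide arrays were also fitted alone (4 and 2 residual degrees of freedom), and the smallest p an exact permutation of 3 against 3 arrays allows is 0.1. The number of arrays limits the precision. The members and gene lists were chosen with earlier results of these data known. Named were every H1 gene, passing members of the core classes and, per list and comparison, up to 4 passing genes each way, or up to 2 with the smallest p. Genes outside this rule were named after their values were seen.

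Replicate numbers were not taken as pairs: with the array set removed, arrays of the same number and day correlated between -0.22 and 0.23. Alternatives covered normalization, filters, probe set choice, limma options, thresholds, blocks and leaving out each array. The code was tested on simulated data. Plots were made in matplotlib 3.10.9 under Python 3.11.15.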

Additional observations from a re-analysis of the deposited data

Results flagged for a closer look

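The genotype effect on the linker histone gene H1f5 differed between days by a test of the difference itself. Pax7-/- minus Pax7+/+ was 1.34 log2 larger at day 21 than at day 7 and 1.35 log2 larger at day 21 than at day 0, with adjusted p = 0.0204 and 0.0084 in limma with the array set as a term. The difference was 0.25, 0.26 and 1.6 log2 at days 0, 7 and 21. On narrow arrays the changes to day 21 were 1.72 from day 7 and 1.41 from day 0, and on wide arrays 1.11 and 1.47. Neither change of H1f5 passed after quantile normalization or without the array set term. The change from day 7 also did not pass with a replicate block. Nor did it pass without Pax7+/+ day 7 replicate 1, Pax7-/- day 7 replicate 1 or Pax7-/- day 21 replicate 1.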

How the results depend on the processing

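Without the array set term 0 members passed in each of the 10 comparisons, against 7 at day 21 between genotypes, 8 in the Pax7+/+ step from day 7 to day 21, and 1 each for the Pax7-/- step from day 0 to day 7 and the changes of the genotype difference from day 7 and from day 0 to day 21; the cause was not tested. At day 21, 12 entries passed when the 12 shared probe sets were counted beside the 33 members, and 5 of these entries were shared probe sets. Of the members alone, 3 passed at an adjusted p under 0.01, 4 with at least 2-fold, and 4 to 8 when 1 array was left out (8 without Pax7-/- day 7 replicate 1). In the Pax7+/+ step from day 7, 5 members passed with at least 2-fold and 6 to 9 with 1 array left out (6 without Pax7+/+ day 7 replicate 2, 9 without Pax7+/+ day 21 replicate 1). Without the array set term 0 to 15 of all 22180 genes passed per comparison. For the stricter thresholds, the fits with 1 array left out and the other settings below, the share of all genes was not counted. Whether the members moved with all genes in those settings is therefore not known. On narrow or wide arrays alone, each group had 1 or 2 arrays. Counts of members passing in those fits are therefore not given, since 1 array shows no spread.

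Quantile normalization passed 1 at day 7, 1 in the Pax7-/- step from day 7, and 0 for both changes to day 21. Median centring passed 1 in that step, and the filter at the 25th percentile 1 there and 1 at day 7. The Pax7-/- step from day 0 passed 0 with at least 2-fold, and the change from day 7 to day 21 passed 0 at an adjusted p under 0.01. With 1 array left out the counts were 0 to 1 at day 0 (1 without Pax7+/+ day 21 replicate 2), 0 to 1 at day 7, 0 to 0 in the Pax7+/+ step and 1 to 1 in the Pax7-/- step from day 0, 0 to 1 in the Pax7-/- step from day 7, 0 to 0 for the change from day 0 to day 7, 0 to 3 from day 7 to day 21 and 1 to 4 from day 0 to day 21 (3 and 4 without Pax7+/+ day 21 replicate 2).

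The replicate numbers share no recorded source. With a replicate block beside the array set, 6 members passed at day 21 between genotypes (H2ac10 did not, adjusted p = 0.0836), 8 in the Pax7+/+ step from day 7 and 0 for the change from day 7 to day 21 (H1f5 1.34, adjusted p = 0.0509). The second probe set of H2ac21, chosen after seeing the data, turned its Pax7+/+ step to 0.11. Both scalings moved the median of all genes by under 0.1 log2 in each of the 10 comparisons.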
